A study of Mus musculus with 4 samples.

Results

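Natural killer (NK) cells were picked out of single-cell RNA libraries of lung immune cells by their own counts of unique molecular identifiers (UMIs), each of which stands for 1 captured RNA molecule. A cell was taken as an NK cell where it had at least 1 UMI of Ncr1 or Klrb1c, at least 1 UMI of Gzma, Prf1 or Eomes, and no UMI of Cd3e, Cd3d, Trac or Cd79a. This left 263 of 27544 cells, or 0.955%, with 127 cells in WT and 41 in KO after DPBS and 38 in WT and 57 in KO after papain. The members were thus chosen by UMIs of these 9 genes, and their levels are no finding. WT mice were C57BL/6 with floxed Ift20 alleles (Ift20 f/f) and no Cre, and KO mice carried the same floxed alleles with CD4 cre, a transgene that makes Cre in developing T cells. Papain, a plant protease that acts as an inhaled allergen, was given into the nose at 25 µg on 3 days in a row and again on day 14, and lungs were taken on day 15, while controls were given the saline DPBS. The sort took live cells positive for CD45.2, and each group gave 1 library with 10x Genomics 3′ v3 chemistry. All mice were males aged 5 to 10 weeks, and the number behind a library was not given in the sources used here.

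NK cells are innate lymphocytes that kill infected or transformed cells by releasing granules of perforin and granzymes, and that make interferon gamma and chemokines. They have no rearranged antigen receptor, and the balance between activating receptors such as NKG2D and inhibitory receptors for MHC class I, in mice many of the Ly49 family, sets their response. In the mouse they mature from CD27-positive to CD11b-positive cells, and the lung holds mostly mature ones. In papain-induced airway inflammation the cells most studied are CD4 T cells and group 2 innate lymphoid cells (ILC2), which make type 2 cytokines.

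Each group holds 1 library, so no difference between groups had a replicate check and none was tested. Intervals in parentheses are 95% intervals for counting error alone, and UMIs of 1 cell are not independent of each other, so true uncertainty is wider. CPM stands for UMIs of a gene per 1000000 UMIs over the NK cells of a library, and a log2 ratio compares the CPM of 2 libraries. Where 4 values follow each other, those of WT and KO after DPBS come before those of WT and KO after papain. The NK cells held 800264, 237228, 228041 and 334060 UMIs, and the median NK cell had 4989, 4833, 5447.5 and 5752 UMIs. Over all kept cells the median was 6114.5 to 6901.5 UMIs, and 3 UMIs, the number that a count of 0 allows, correspond to 3.75 CPM in DPBS WT and 12.6 CPM in DPBS KO. Between 7 and 16 barcodes were shared by each pair of libraries, and none was an NK cell in both. Where a level differed, more cells with the RNA and more RNA per cell cannot be told apart from CPM alone.

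Ift20, the floxed gene, was detected in the NK cells of all libraries. It encodes a subunit of the intraflagellar transport complex and lies at chr11:78536361-78541737 (GRCm38). Its level was 93.7 CPM in WT and 105 in KO after DPBS, and 114 in WT and 102 in KO after papain. KO over WT gave a log2 ratio of 0.17 (-0.55 to 0.84) after DPBS and -0.16 (-0.94 to 0.63) after papain. Both intervals include 0 and are wide, so a difference in Ift20 was not detectable at this depth. In Ccl5-positive CD8 T cells, where CD4 cre would have acted during thymic development, Ift20 was at 52.4 and 56.5 CPM in the WT libraries and at 26.4 and 18.1 CPM in the KO libraries. In T cells with NK receptors it was at 80.5 and 73.1 CPM in the WT and 56.1 and 44.9 CPM in the KO libraries. The 3′ end counted by this chemistry need not lie in the deleted part, so these counts are not a measure of the protein. Of the other genes that encode intraflagellar transport proteins or partners of IFT20, Tsg101 was at 71.2, 67.4, 78.9 and 53.9 CPM and Trip11 at 82.5, 67.4, 78.9 and 74.8 CPM.

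Genes that the selection did not use gave the cells the profile of NK cells. Nkg7, which encodes a granule membrane protein, had UMIs in 97.4% to 100% of NK cells per library against 0.740% to 1.94% of B cells, the class that should lack it. Klrd1, the CD94 chain, was found in 93.7, 82.9, 86.8 and 89.5% and Klre1, another lectin-like receptor, in 91.3, 95.1, 97.4 and 91.2% of the NK cells. In B cells, whose median depth was 4005 to 4960 UMIs, these shares did not exceed 1.94% and 0.804%. Tyrobp, the DAP12 adaptor, was in 97.4% to 100% of NK cells. Trbc1, a T cell receptor beta constant gene that NK cells also transcribe, was in 73.7% to 86.0% of them. The T cell genes Cd4, Cd8a, Cd8b1, Trat1, Cd5 and Cd6 had at most 3 UMIs each in a library, but Cd3g, which the selection did not use, had 8, 33, 4 and 8 UMIs, of which 15 of the 33 in DPBS KO came from 1 cell. Over the 12 T cell markers outside the selection the NK cells summed to 820 to 1281 CPM, most of it from Trbc1 and Trbc2, and over 10 B cell markers to 274 to 846 CPM against 41480 to 51842 CPM in B cells. Of 8 basophil and mast cell markers at most 2, and of 8 markers of lung structural cells at most 3, had a UMI in any library.

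Genes of type 1 innate lymphoid cells and tissue-resident cells were sparse. Itga1, the CD49a integrin chain, had 7, 9, 0 and 5 UMIs and Cxcr6 5, 3, 0 and 4 UMIs. Il7r, the IL-7 receptor, had 13, 8, 4 and 1 UMIs, and Zfp683, the residency factor Hobit, had none. The ILC2 genes Il1rl1, Il13 and Il5 were at 0 in the NK cells of all 4 libraries, as were Il10 and Il22. Cells of other types that lacked the excluded genes could still pass the selection, and their markers were not at 0. Lyz2, a lysozyme of myeloid cells, had UMIs in 53.5, 70.7, 34.2 and 40.4% of NK cells and in 41.0% to 52.2% of B cells of the same libraries. The summed level of 10 macrophage markers was 4026, 1404, 3083 and 1164 CPM in NK cells against 3417, 1774, 3387 and 1485 CPM in B cells. The summed level of 10 monocyte and neutrophil markers was 4352, 873, 1921 and 626 CPM against 3294, 2201, 2168 and 2074 CPM in B cells. Ly6c2 and Ccr2 on this list, and Ctsd on the macrophage list, also stand on the mature, trafficking and granule lists used below. The sums thus do not measure RNA of other cell types alone, and Ccr2 by itself was at 308 CPM in Papain KO. Part of these sums in DPBS WT was 1 cell with 38938 UMIs, 4.87% of the NK UMIs of that library. It held 469 Chil3 and 320 Lyz2 UMIs beside 50 Gzma and 20 Nkg7 UMIs.

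Few of the NK cells stood at the edge of the selection, but more cells lay just outside it. Of the 263 cells, 23 had just 1 UMI of the receptors and 7 just 1 UMI of the granule genes or Eomes. Outside the edge, 35 cells had a receptor UMI but none of Gzma, Prf1 and Eomes, and 127 had one of those but no receptor UMI. Nkg7 was in 25.0% to 66.7% of the former and in 3.13% to 13.6% of the latter. Another 96 cells met both positive criteria with 1 UMI in total of the excluded genes, and all of them had Nkg7 UMIs. Klrd1 was in 83.3% to 95.7% of these per library, and Klre1 likewise in 83.3% to 95.7%. These 96 cells, 37, 18, 18 and 23 per library, are not in the shares of NK cells given below. Those whose 1 UMI was of Cd3e, Cd3d or Trac were counted as T cells with NK receptors (113, 54, 78 and 81 cells). The shares and levels of that class may thus include NK cells. The median log2 ratio of the selecting genes is fixed in part by the selection and is not read here.

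The share of NK cells among the sequenced cells differed between libraries. NK cells were 1.56% (1.30 to 1.85) of 8144 cells in DPBS WT and 0.719% (0.516 to 0.974) of 5704 in DPBS KO. After papain they were 0.475% (0.337 to 0.652) of 7994 cells in WT and 1.00% (0.758 to 1.29) of 5702 in KO. DPBS WT had the highest share and Papain WT the lowest. KO over WT gave a log2 ratio of -1.12 (-1.66 to -0.60) after DPBS against 1.07 (0.46 to 1.70) after papain. The ratio of papain to DPBS was -1.71 (-2.28 to -1.18) in WT and 0.48 (-0.13 to 1.09) in KO, the last within counting error. T cells with NK receptors were at 1.39%, 0.947%, 0.976% and 1.42%. Ccl5-positive CD8 T cells were at 2.82%, 2.66%, 3.21% and 3.74%, and ILC2 at 0.565%, 0.508%, 0.788% and 0.877%. Where genes of other cells (Cd3g, Cd8a, Cd8b1, Cd4, Cd79b, Ms4a1, Lyz2 and Csf1r) were also required to be at 0, 50, 9, 23 and 30 cells were left and the shares were 0.614%, 0.158%, 0.288% and 0.526%. Both treatments kept the direction of the genotype ratio there, and so did both genotypes for the treatment ratio. This set is called below the cells without UMIs of other cell types, although further genes of those types were not required to be at 0. Lyz2 UMIs were also found in B cells of the same libraries. Ratios in this set are given without intervals, and those with DPBS KO rest on 9 cells there. A share of sequenced cells moves with the number of all other cells, and cells per lung were not measured here.

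**Figure D1:**
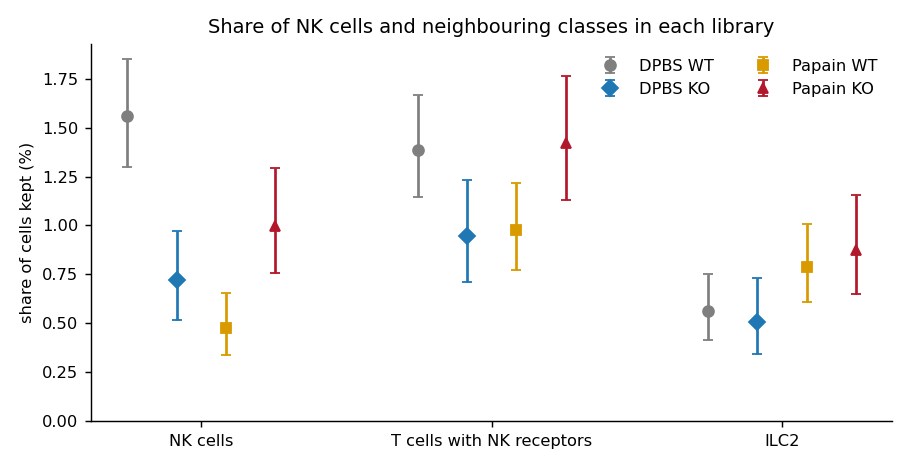
Share of NK cells, T cells with NK receptors and ILC2 among all kept cells (percent, vertical axis) in each of the 4 libraries (colours and symbols), with 95% Clopper-Pearson intervals as error bars. For NK cells DPBS WT stands highest at 1.56% and Papain WT lowest at 0.475%, with the 2 KO libraries between them at 0.719% and 1.00%.

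Genes were compared where the NK cells of the 2 libraries held at least 50 UMIs together, and a gene was counted as past the fold where its log2 ratio was at least 1 or at most -1. In DPBS, 1.01% of 3164 genes were higher in KO past the fold and 5.78% lower, while after papain 1.16% of 1729 genes were higher in KO and 1.33% lower. Between papain and DPBS, 0.9% of 3224 genes were higher in papain and 3.16% lower in WT, and 1.41% of 1697 genes higher and 1.24% lower in KO. These shares are the background for the counts past the fold given for each group of genes. The minimum is on the sum of the 2 libraries, and DPBS WT held the most NK UMIs, so genes could pass through that library alone. With at least 1 UMI and a count of 0 set to 3 UMIs, 2907 genes were higher and 1287 lower in DPBS KO than in DPBS WT. In Papain WT against DPBS WT, 2941 were then higher and 872 lower. With at least 20 or 100 UMIs, more genes were lower than higher in both comparisons. The median log2 ratio over all genes was -0.057 and 0.012 for KO against WT in DPBS and papain, and -0.012 and 0.018 for papain against DPBS in WT and KO. In the same order, 1395 of 3164, 888 of 1729, 1573 of 3224 and 879 of 1697 genes had a ratio above 0. These counts are the background for the numbers of list members with a higher CPM. Without the deepest cell of DPBS WT, the genes lower in DPBS KO went from 183 to 131 and those lower in Papain WT from 102 to 84. Scaling by TMM in place of CPM moved the median of KO against WT in papain to 0.11, and the genes past the fold from 20 higher and 23 lower to 29 higher and 19 lower.

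Of the activating receptors, Klrk1 differed beyond counting error in all 4 comparisons. It encodes NKG2D, which binds stress-induced ligands on target cells. Klrk1 was at 898 CPM in WT and 472 in KO after DPBS, and 640.2 in WT and 952 in KO after papain. It was high in DPBS WT and Papain KO and low in DPBS KO and Papain WT. KO over WT gave a log2 ratio of -0.93 (-1.23 to -0.64) after DPBS against 0.57 (0.29 to 0.86) after papain. The ratio of papain to DPBS was -0.49 (-0.76 to -0.23) in WT and 1.01 (0.70 to 1.34) in KO. After each cell was thinned to 2000 UMIs, Klrk1 was found in 83.1, 55.3, 63.9 and 85.5% of NK cells. Unthinned, it was found in 98.4, 80.5, 86.8 and 98.2% of them, against 0.0822% to 1.06% of B cells. These directions stayed under every alternative processing tried for this gene, and in cells without UMIs of other cell types the ratio was -1.66 for KO over WT after DPBS and 1.60 for papain against DPBS in KO.

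Klrc2, which encodes NKG2C, an activating partner of CD94, was at 271 CPM in WT and 194 in KO after DPBS, and 224 in WT and 350.2 in KO after papain. Its log2 ratios of KO over WT had the same signs as those of Klrk1, with -0.48 (-0.98 to -0.019) after DPBS against 0.65 (0.16 to 1.15) after papain. Of windows of 90 bases in its last 500 bases, 6.36% also match Klrc1 or Klrc3, so its count may be affected. How reads that match several genes were counted was not stated in the sources used here. Over the list of activating receptors and adaptors, log2 ratios of KO over WT ran from -1.10 to 0.52 in DPBS. After papain they ran from -0.50 to 0.67. Fcer1g, the Fc receptor gamma chain, was at 2404, 2702, 2364 and 2434 CPM, and Hcst, the DAP10 adaptor of NKG2D, at 439.9, 590.1, 456 and 557 CPM. Cd244a, the 2B4 receptor, was at 124, 177, 109.6 and 119.7 CPM. Of the 18 genes on this list that the selection did not use, 15 were measured in DPBS and 7 of them had a higher CPM in KO, with Sh2d1b1, the EAT-2 adaptor, the 1 gene lower past the fold at -1.10 (-2.38 to -0.031), a ratio that turned to 0.52 in cells without UMIs of other cell types. After papain 10 of 11 were higher in KO and none was past the fold. Klrk1 was the 1 gene past the fold between papain and DPBS in KO, where 6 of 10 were higher in papain, and none was in WT, where 5 of 15 were. The medians for the list were -0.0048, 0.13, -0.17 and 0.19 in the same order as those over all genes.

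Among the inhibitory receptors, Klrg1 differed in the opposite way to Klrk1. It encodes KLRG1, a receptor for cadherins that marks mature NK cells. Its level was 70 CPM in WT and 122 in KO after DPBS, and 189 in WT and 102 in KO after papain. KO over WT gave a log2 ratio of 0.80 (0.11 to 1.48) after DPBS against -0.89 (-1.58 to -0.21) after papain, and papain against DPBS in WT gave 1.43 (0.82 to 2.03). These signs turned for Klrg1 in all 3 of these comparisons in the smaller set of cells without UMIs of other cell types, with -1.02, 0.69 and -0.26. That set held 50, 9, 23 and 30 cells. Klrc1, which encodes NKG2A and pairs with CD94 to read classical MHC class I indirectly, was at 259, 278, 316 and 209.5 CPM. For Klrc1, 21.9% of 90-base windows match another gene. Klrd1 itself was at 676, 578, 618 and 727 CPM. Cd300a was lower past the fold in DPBS KO and in Papain WT than in DPBS WT, where 23 of its 52 UMIs came from 1 cell. Of the 5 inhibitory receptor genes measured in DPBS, 3 had a higher CPM in KO, with a median log2 ratio of 0.11, and of the 4 measured after papain 1 did, with a median of -0.36. Between papain and DPBS, 3 of 5 were higher in papain in WT and 2 of 4 in KO, with medians of 0.29 and -0.022.

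The Ly49 receptors, encoded by the Klra genes, read MHC class I on other cells. The 10 listed lie together at chr6:129831154-130386874 (GRCm38), within a cluster that also holds the Klrb1, Klrc, Klrd1 and Klrk1 genes. Klra3, the inhibitory Ly49C, was at 241 CPM in WT and 84.3 in KO after DPBS, and 237 in WT and 278 in KO after papain. DPBS KO stood apart, with a log2 ratio of KO over WT of -1.52 (-2.26 to -0.85) in DPBS and of papain to DPBS of 1.72 (1.01 to 2.50) in KO. In papain the ratio of KO over WT was 0.23 (-0.27 to 0.74). Without UMIs of other cell types the ratios for Klra3 were smaller, at -0.52 in DPBS and 0.70 for papain against DPBS in KO. The share of its windows that match another gene was 5.15%.

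Of the activating Ly49 receptors, Klra4 (Ly49D) was at 645 CPM in WT and 531 in KO after DPBS, and 452 in WT and 718 in KO after papain and Klra8 (Ly49H) at 417 CPM in WT and 565 in KO after DPBS, and 395 in WT and 619.6 in KO after papain. Klra7 (Ly49G) was at 341, 308, 250.0 and 410.1 CPM, Klra9 (Ly49I) at 334, 333, 447 and 389 CPM and Klra1 (Ly49A) at 104, 67.4, 109.6 and 35.9 CPM. Up to 12.4% of the windows of Klra9 match a related gene, so the split between related Klra genes is uncertain. Klra8 was higher in both KO libraries, with a log2 ratio of 0.44 (0.14 to 0.73) after DPBS against 0.65 (0.29 to 1.02) after papain. After papain Klra4 and Klra7 also had higher values in KO, at 0.67 (0.33 to 1.02) and 0.71 (0.26 to 1.19). By count, 1 of 6 Ly49 genes was higher in KO in DPBS and 4 of 5 after papain, and in KO 5 of 5 were higher in papain than in DPBS. The median log2 ratios were -0.21, 0.65, -0.054 and 0.41, and Klra3 was the 1 gene past the fold, lower in KO than in WT after DPBS and higher in papain than in DPBS in KO.

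Single NK cells carried several Ly49 RNAs. At 2000 UMIs per cell, a mean of 2.02, 1.84, 1.97 and 2.16 of the 10 genes were detected per cell. At this depth, 81 of 124, 20 of 38, 22 of 36 and 41 of 55 cells had at least 2 of them, and 19, 4, 2 and 2 cells had none. The highest number in a cell was 4 or 5. Klra10 had no UMI in any library, and Klra5, Klra6 and Klra17 were near 0.

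**Figure D2:**
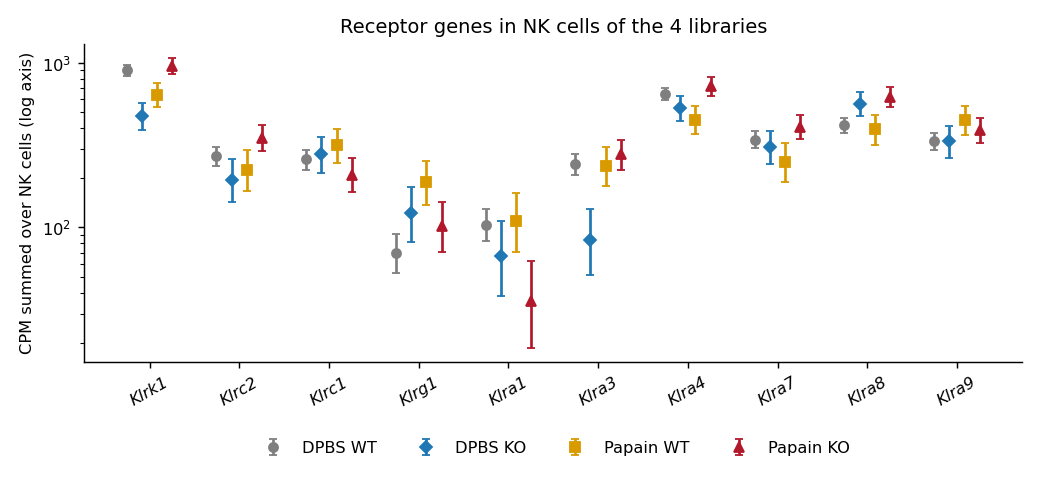
Level of 10 activating, inhibitory and Ly49 receptor genes in NK cells (CPM, vertical axis on a log scale) in the 4 libraries, with 95% Poisson intervals as error bars. Klrk1 is high in DPBS WT and Papain KO (898 and 952 CPM), and Klra3 is low in DPBS KO alone (84.3 CPM).

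Beside their nearest neighbours, T cells with NK receptors (113, 54, 78 and 81 cells), the NK cells had higher levels of 21 of 22 NK identity genes in 4 of 4 libraries. The absence of T cell genes separates these classes by rule, and a UMI of Gzma, Prf1 or Eomes was required of NK cells alone. The selection thus favoured granule genes and genes that go with them in NK cells, and the comparison is a description. The T cell class may also hold NK cells, as given above. Over all 7504 genes compared, 17.5% were higher and 9.55% lower in NK cells in 4 of 4 libraries. The genes with the largest smallest difference included Ncr1 and Eomes, which the selection used, together with Phactr3, Aoah, Klra8, Klra4, Camk2n1, Kcnip3, Khdc1a, Klrb1f, Tyrobp, Cuedc1, Klra9, AW112010 and Klri2. Aoah encodes an enzyme that inactivates lipopolysaccharide. Of the Ly49 genes, 4 of 8 (Klra3, Klra4, Klra8 and Klra9) were higher in NK cells in 4 of 4 libraries and Klra6 was lower. Of the granule genes that the selection did not use, 7 of 16 were higher, Gzmb, Nkg7 and Serpinb9 among them. In 4 of 4 libraries, 12 of the 14 genes of mature NK cells were higher and Ly6c2 was lower, whereas 8 of the 14 genes of immature NK cells were lower, such as Il7r, Tcf7, Thy1 and Cxcr3, and Xcl1 was higher.

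Against Ccl5-positive CD8 T cells (230, 152, 257 and 213 cells), which share the chemokine Ccl5 and some granule genes, the genes that stood out were mostly receptors. Apart from Ncr1 and Klrb1c, which were at 0 in those cells by rule, they were Klra4, Klra8, Klrb1b, Cma1, Klri2, Klra9, Adamts14, Khdc1a, Klrb1f, Klrb1a, Aoah, Styk1 and Kcnip3. Klra4 was at 452 to 718 CPM in NK cells against 0.588 to 4.13 CPM in these CD8 T cells. Cma1, which encodes a mast cell chymase that mature NK cells also transcribe, was at 112 to 240.3 CPM in NK cells and had no UMI in the CD8 T cells of any library.

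The granule genes gave differences below the fold. Gzma, which encodes granzyme A and was one of the selecting genes, was at 5483 CPM in WT and 6652 in KO after DPBS, and 6806 in WT and 8280.0 in KO after papain. Prf1, which encodes the pore-forming perforin and was also used for selection, was at 569, 1049.6, 943 and 892 CPM. Gzmb, which encodes the caspase-cleaving granzyme B and was not used, was at 783 CPM in WT and 1353 in KO after DPBS, and 1088 in WT and 1033 in KO after papain. Gzmb was lowest in DPBS WT. Its log2 ratio between KO and WT in DPBS was 0.79 (0.59 to 0.98), and that of papain to DPBS in WT was 0.47 (0.26 to 0.69). After papain KO and WT differed by -0.075 (-0.31 to 0.17).

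Serpinb9, an inhibitor that protects the killer cell from its own granzyme B, was at 371, 649, 443 and 554 CPM, lowest in DPBS WT as well. Fasl, the death ligand, was at 90, 139, 118 and 123 CPM. Nkg7 was at 2604, 2888, 3214 and 3413 CPM. None of the granule genes outside the selection was past the fold in any comparison. In DPBS 8 of 12 were higher in KO, with a median log2 ratio of 0.10, and after papain 5 of 10, with a median of -0.00073. In WT 7 of 12 were higher in papain with a median of 0.086, and in KO 3 of 10 with a median of -0.18. In the set without UMIs of other cell types the ratio of papain to DPBS in WT turned for Gzmb to -0.35, and that of KO over WT in DPBS was 0.42 for Gzmb and 0.48 for Serpinb9.

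Chemokine genes stood out more than granule genes. Ccl3 encodes MIP-1 alpha and Ccl4 MIP-1 beta, which draw leukocytes to sites of inflammation. Ccl3 was at 365 CPM in WT and 156 in KO after DPBS, and 499.9 in WT and 632 in KO after papain. KO over WT gave a log2 ratio of -1.23 (-1.76 to -0.73) after DPBS against 0.34 (0.002 to 0.68) after papain, and papain against DPBS in KO gave 2.02 (1.51 to 2.56). Ccl4 was at 741 CPM in WT and 514 in KO after DPBS, and 974 in WT and 1335 in KO after papain. The corresponding ratios for Ccl4 were -0.53 (-0.82 to -0.24), 0.46 (0.22 to 0.69) and 1.38 (1.08 to 1.68). Both were lowest in DPBS KO and highest in Papain KO, and single cells held up to 123 Ccl4 UMIs. In the set without UMIs of other cell types, Ccl3 and Ccl4 turned to lower in KO after papain, at -0.40 and -0.34, and the difference after DPBS was larger, at -2.49 and -1.34, while papain against DPBS in KO gave 0.47 for Ccl4. Without the top cell of the gene in each library, KO over WT for Ccl4 was -1.10 after DPBS and 0.80 after papain, and for Ccl3 0.51 after papain.

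Ccl5, the chemokine RANTES, was at 11269, 16006, 15703 and 16524 CPM, with DPBS WT lowest. Xcl1, which draws type 1 dendritic cells, was at 712, 843, 846 and 961 CPM. Ifng, the interferon gamma gene, was at 259 CPM in WT and 164 in KO after DPBS, and 460.4 in WT and 245 in KO after papain. It was highest in Papain WT, with a log2 ratio of KO over WT of -0.91 (-1.34 to -0.48) after papain and -0.65 (-1.19 to -0.15) after DPBS. In WT the ratio of papain to DPBS was 0.83 (0.48 to 1.18). Without the top cell of the gene in each library, the ratio of KO over WT for Ifng after DPBS was -1.28, and without UMIs of other cell types that of papain to DPBS in WT was 0.36. Tnf had 22, 9, 4 and 2 UMIs and Csf2, the GM-CSF gene, 20, 12, 2 and 12 UMIs. Of the 19 soluble products listed, 8 were measured in DPBS, of which 3 were higher in KO and Ccl3 and Osm were lower past the fold, although 20 of the 65 Osm UMIs came from 1 cell of DPBS WT. After papain 5 of 6 were higher in KO with none past the fold. In KO 5 of 7 were higher in papain, with Ccl3 and Ccl4 past the fold, and in WT 5 of 8 were, with none. The medians were -0.27 and 0.16 for KO against WT in DPBS and papain, and 0.32 and 0.19 for papain against DPBS in WT and KO.

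**Figure D3:**
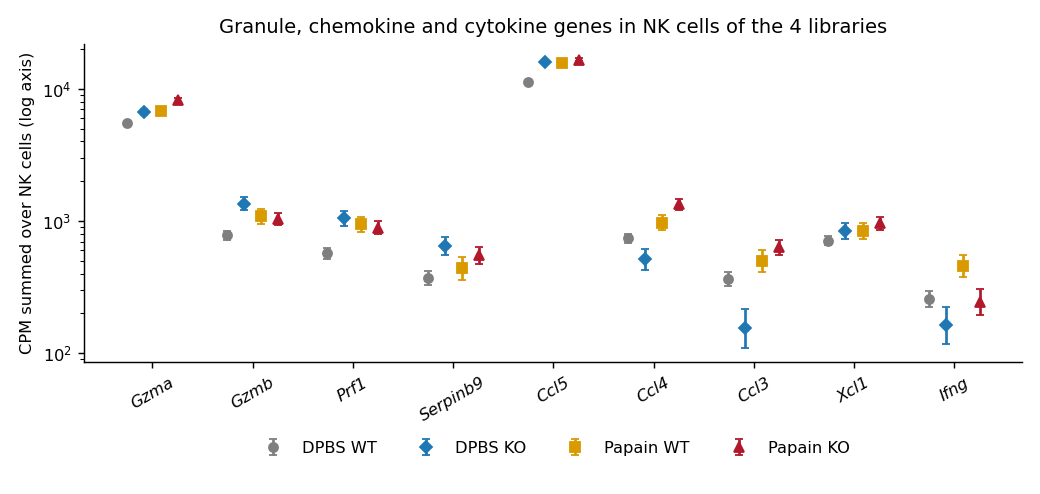
Level of 9 granule, chemokine and cytokine genes in NK cells (CPM, vertical axis on a log scale) in the 4 libraries, with 95% Poisson intervals as error bars. Gzmb is lowest in DPBS WT (783 CPM), Ccl3 is lowest in DPBS KO (156 CPM) and Ifng is highest in Papain WT (460.4 CPM).

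Genes of maturation were compared as a pair of lists, the genes known to be higher in CD11b-positive and in CD27-positive NK cells. After papain, 0 of 12 genes of mature cells had a higher CPM in KO, with a median log2 ratio of -0.32, and 8 of 9 genes of immature cells did, with a median of 0.61. S1pr5 and Ly6c2 were lower past the fold, and Emb, Ctla2a, Cd160 and Cd69 were higher. Where the cells are divided below by Cd27 and Itgam UMIs, Cd69 was higher with Itgam in 2 of 4 libraries, Papain KO among them. In WT, 11 of 12 genes of mature cells were higher in papain than in DPBS, with a median of 0.52, and 3 of 10 genes of immature cells, with a median of -0.22, and Klrg1 was the 1 gene of either list past the fold. Between KO and WT in DPBS the medians were -0.025 and 0.18, with Cma1 past the fold, and between papain and DPBS in KO they were -0.11 and 0.25, with none past the fold. The comparison of KO with WT in papain and that of papain with DPBS in WT share the Papain WT library.

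S1pr5 encodes the sphingosine 1-phosphate receptor by which mature NK cells leave tissues, and was at 104 CPM in WT and 80.1 in KO after DPBS, and 153 in WT and 59.9 in KO after papain. The log2 ratio of KO over WT after papain was -1.36 (-2.23 to -0.53). Ly6c2, a surface protein of mature NK cells and monocytes that also stands on the monocyte list, was at 266, 198, 403 and 183 CPM, with a ratio of -1.14 (-1.63 to -0.66) in that comparison that went to 0.030 where Gzma, Prf1 and Eomes were not required and to -0.31 for Ly6c2 without UMIs of other cell types. Tbx21, the factor T-bet, was at 161, 169, 189 and 114 CPM, and Irf8, a factor needed in the antiviral response of NK cells, at 1111 CPM in WT and 1821 in KO after DPBS, and 2092 in WT and 1688 in KO after papain. Irf8 was lowest in DPBS WT. Its ratio of KO over WT was 0.71 (0.54 to 0.88) after DPBS against -0.31 (-0.49 to -0.13) after papain, and that of papain to DPBS in WT 0.91 (0.75 to 1.08). Lgals1, the galectin-1 gene, was at 1379.5, 1792, 2096 and 1715 CPM. Cma1 was at 112, 240.3, 206 and 165 CPM, with a ratio of KO over WT in DPBS of 1.10 (0.59 to 1.59) and of papain to DPBS in WT of 0.87 (0.33 to 1.40), which turned to -1.25 and -0.016 in cells without UMIs of other cell types, and the ratio in DPBS was 0.63 for Cma1 without the top cell of each library.

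Of the genes of immature cells, Ctla2a, which encodes a cathepsin inhibitor, was at 719.8 CPM in WT and 814 in KO after DPBS, and 469 in WT and 1141 in KO after papain. The log2 ratio of KO over WT after papain was 1.28 (0.97 to 1.60). Emb, the adhesion protein embigin, was at 256 CPM in WT and 481 in KO after DPBS, and 241 in WT and 503 in KO after papain, and was higher in both KO libraries. Cd160, a receptor for HVEM, was at 99.97, 75.9, 65.8 and 135 CPM, and Cd69, a membrane protein that holds lymphocytes in tissue by opposing S1PR1, at 134, 143, 105 and 233 CPM. The ratios of KO over WT after papain were 1.06 (0.61 to 1.53) for Emb, 1.03 (0.16 to 1.98) for Cd160 and 1.15 (0.47 to 1.87) for Cd69. Without UMIs of other cell types that of Cd160 was 0.49. Thy1 was at 162, 236, 162 and 123 CPM, but 32 of its 56 UMIs in DPBS KO were in 1 cell.

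The mature list depended on which cells were kept. In the set without UMIs of other cell types its median log2 ratio was -0.48 for KO against WT in DPBS, -0.011 for KO against WT in papain, -0.016 for papain against DPBS in WT and 0.57 in KO. These medians rest on 9, 8, 11 and 5 genes, against 12, 12, 12 and 11 genes in all NK cells. For the genes of immature cells the median of KO against WT in papain was 1.14 in that set. It rests on 5 genes, 4 of them above 0, against 9 genes in all NK cells, so the medians of the 2 sets cover different genes.

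**Figure D4:**
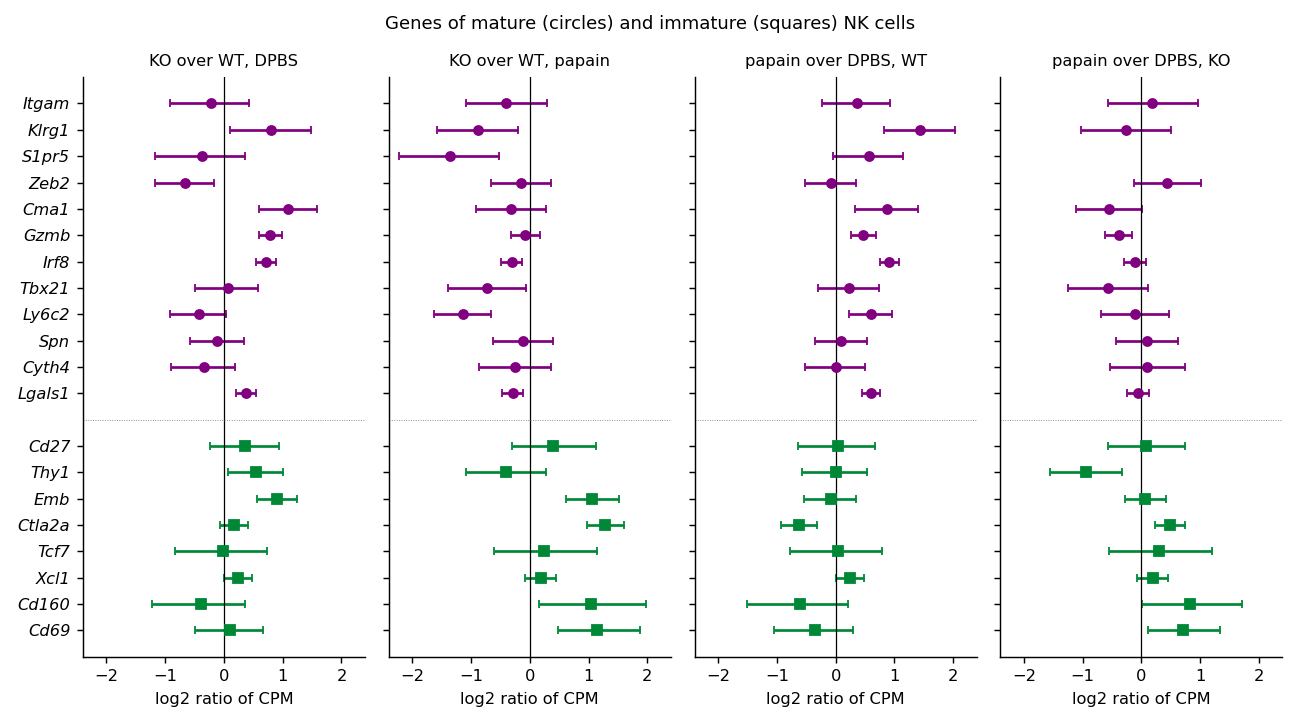
Log2 ratio between libraries (horizontal axis) for genes of the mature list (circles) and of the immature list (squares), 1 panel per comparison, with 95% counting intervals as bars. Genes are those with at least 50 UMIs in each of the comparisons of KO with WT and in that of papain with DPBS in WT, and S1pr5, which had fewer in the last panel, is not drawn there. For KO against WT in papain all 12 mature genes lie below 0 and 7 of the 8 immature genes drawn lie above 0.

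Cells were also divided by their UMIs of Cd27 and Itgam, the CD11b gene, neither of which the selection used. At 2000 UMIs per cell, Cd27 alone was detected in 16.1% (10.1 to 23.8) of 124 cells in DPBS WT, 10.5% (2.94 to 24.8) of 38 in DPBS KO, 5.56% (0.680 to 18.7) of 36 in Papain WT and 23.6% (13.2 to 37.0) of 55 in Papain KO. Itgam alone was detected in 13.7% (8.19 to 21.04), 21.1% (9.55 to 37.3), 36.1% (20.8 to 53.8) and 12.7% (5.27 to 24.5). Papain WT had the highest share of cells with Itgam alone and the lowest with Cd27 alone, but within each class the intervals of all libraries overlap. Unthinned, Cd27 alone was detected in 27.6%, 31.7%, 23.7% and 28.1%, and Itgam alone in 27.6%, 29.3%, 50% and 24.6%. At 1000 UMIs per cell the share with Itgam alone in Papain WT was 15.8%. Most cells had neither gene at 2000 UMIs, with 66.1%, 63.2%, 58.3% and 58.2%, so a cell without UMIs of one gene may still express it.

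The RNA of these classes differed in the same way in each library for most maturation genes. Cells with Itgam UMIs alone (35, 12, 19 and 14 unthinned) were set against those with Cd27 UMIs alone (35, 13, 9 and 16). Of 3000 genes, 8.9% were higher and 8.33% lower in the former in 4 of 4 libraries. Of the mature list without Itgam, 8 of 11 were higher in 4 of 4 libraries and none lower, and of the immature list without Cd27, 8 of 9 were lower and none higher. The exception was Cd69, higher with Itgam in 2 of 4 libraries, with a pooled log2 ratio of 0.56 (0.064 to 1.07). In Papain KO, Cd69 was at 603 CPM in the cells with Itgam and 117 CPM in those with Cd27. Cma1 went from 64.6, 24.7, 27.4 and 36 CPM in the cells with Cd27 UMIs to 175, 586, 403 and 459.6 CPM in those with Itgam UMIs. Over the libraries together its log2 ratio was 2.84, and that of Klrg1 was 2.13, of Zeb2 1.59 and of Ly6c2 1.55. Emb went from 328, 865, 506 and 908 CPM in the cells with Cd27 UMIs to 199, 279.9, 98 and 71.8 CPM in those with Itgam UMIs. The pooled log2 ratio was -1.75 for Emb, -1.40 for Ctla2a, -1.74 for Xcl1, -1.96 for the factor Tcf7 and -2.18 for the lymphotoxin gene Ltb. Among the Ly49 genes, Klra1, Klra8 and Klra9 were higher and Klra7 lower in cells with Itgam UMIs in 4 of 4 libraries, with pooled log2 ratios of 0.84 for Klra9 and -1.004 for Klra7. None of 11 granule genes outside the selection kept 1 direction in 4 of 4. Median depth was 4035 to 5016.5 UMIs in the cells with Itgam and 5200 to 7196 in those with Cd27, and Lyz2 had UMIs in 28.6% to 100% of the former and 33.3% to 53.8% of the latter. The part of depth and of myeloid RNA in these differences was not tested.

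**Figure D5:**
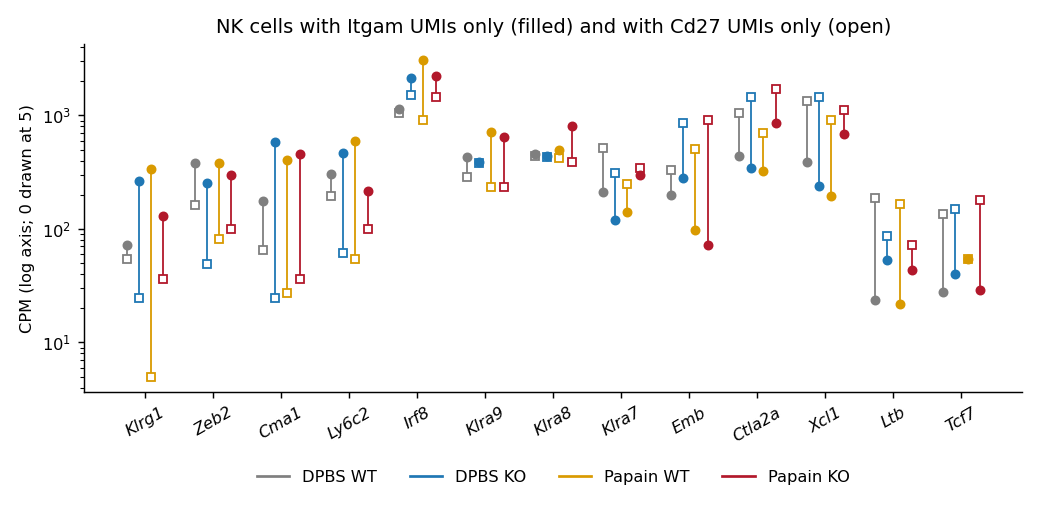
Level of 13 genes (CPM, vertical axis on a log scale, with a level of 0 drawn at 5) in NK cells with Itgam UMIs only (filled circles) and with Cd27 UMIs only (open squares), joined by a line per library in its colour and drawn without error bars. Cma1 is higher with Itgam in 4 of 4 libraries, from 64.6 to 175 CPM in DPBS WT and from 24.7 to 586 CPM in DPBS KO, and Emb is lower in 4 of 4.

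Genes of cytokine receptors and of the signalling below them were measured for 10 to 18 of 27 per comparison. Il2rb, the beta chain shared by the IL-2 and IL-15 receptors on which NK cells depend, was at 793, 1176, 1175 and 1084 CPM. DPBS WT was the lowest, with a log2 ratio of KO over WT of 0.57 (0.36 to 0.77) in DPBS and of papain to DPBS in WT of 0.57 (0.36 to 0.77), which for Il2rb were 0.084 and 0.32 without UMIs of other cell types. Ifngr1, an interferon gamma receptor chain, was at 752, 1416, 943 and 1227 CPM, with a ratio of KO over WT of 0.91 (0.72 to 1.11) in DPBS. Socs3, a feedback inhibitor of cytokine signalling, was at 58.7, 118, 78.9 and 132 CPM and past the fold in that comparison at 1.01 (0.28 to 1.71). Il21r, the IL-21 receptor, was at 37.5, 59, 123 and 105 CPM, and the 1 gene past the fold between papain and DPBS in WT, at 1.71 (0.91 to 2.50). The IL-18 receptor chains Il18r1 and Il18rap were at 150.0, 131, 179.8 and 153 CPM and 195, 173, 228 and 189 CPM. In DPBS 9 of 16 genes were higher in KO (median 0.26) and after papain 6 of 11 (median 0.012). In WT 15 of 18 were higher in papain (median 0.26), and in KO 5 of 10 (median -0.043).

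Of the transcription factors of NK development, some had like levels in the 4 libraries. Id2, an inhibitor of E proteins that innate lymphocytes need, was at 1091, 1193, 1145 and 1075 CPM, Runx3 at 232, 299, 289 and 263 CPM and Nfil3 at 99.97, 105, 132 and 111 CPM. Zeb2, which acts with T-bet in the last steps of maturation, was at 274, 173, 259 and 233 CPM, with a log2 ratio of KO over WT in DPBS of -0.66 (-1.18 to -0.18). Irf8 and Tbx21, given above among the genes of mature cells, are also on this list, and Tbx21 had a ratio of KO over WT after papain of -0.73. Rora, a nuclear receptor also used by ILC2, was at 53.7, 122, 70.2 and 86.8 CPM and was the 1 gene past the fold in DPBS, at 1.19 (0.45 to 1.90). Without Eomes, which the selection used, the list gave 9 of 12 higher in KO in DPBS (median 0.14), 2 of 10 in papain (median -0.18), and in papain against DPBS 12 of 13 higher in WT (median 0.32) and 5 of 11 in KO (median -0.0084).

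Of the trafficking receptors, Ccr2, the receptor for the chemokine CCL2 and also a monocyte marker, was at 247 CPM in WT and 143 in KO after DPBS, and 193 in WT and 308 in KO after papain. It was lowest in DPBS KO and highest in Papain KO, with a log2 ratio of papain to DPBS in KO of 1.11 (0.53 to 1.71) and of KO over WT of -0.79 (-1.36 to -0.26) after DPBS against 0.68 (0.15 to 1.22) after papain. Without UMIs of other cell types these were -0.077, 0.16 and -0.058. Itgal, a chain of the integrin LFA-1, was at 371, 388, 465 and 269 CPM. Cd44 was at 314, 101, 294 and 119.7 CPM and lower past the fold in both KO libraries, but 61 of 251 UMIs in DPBS WT and 32 of 67 in Papain WT were in 1 cell each, and in cells without UMIs of other cell types the ratio in DPBS was 0.47. After papain 4 of 12 trafficking genes were higher in KO, with a median of -0.29, Cd69 higher and S1pr5 and Cd44 lower past the fold. In DPBS 7 of 13 were higher in KO, with a median of 0.0040. Between papain and DPBS, 7 of 13 were higher in papain in WT and 6 of 11 in KO, with medians of 0.018 and 0.069.

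Few NK cells carried RNA of dividing cells. Mki67 or Top2a UMIs were in 15 of 127, 3 of 41, 7 of 38 and 8 of 57 cells, or 11.8% (6.76 to 18.7), 7.32% (1.54 to 19.9), 18.4% (7.74 to 34.3) and 14.0% (6.26 to 25.8). Just 2, 2, 2 and 1 cells had UMIs of at least 5 of 12 cell cycle genes. Top2a was lower past the fold in DPBS KO, and 45 of its 63 UMIs in DPBS WT came from the deepest cell. Of the interferon-stimulated genes, Irf7 was at 104, 131, 87.7 and 177 CPM and higher in KO past the fold after papain, at 1.01 (0.26 to 1.82), while Ifi27l2a was lower past the fold than in DPBS WT in both comparisons with that library, where 34 of its 72 UMIs came from 1 cell. By count, 2 of 7 measured interferon-stimulated genes were higher in KO in DPBS and 1 of 2 after papain. Isg15 was at 52.5, 54.8, 70.2 and 35.9 CPM. Immediate early and heat shock genes, which also respond to cell handling, had no gene past the fold in any comparison and medians of 0.054, 0.014, 0.13 and 0.020. Junb was at 1199.6, 1872, 1548 and 1733 CPM and Fos at 646, 455, 408 and 503 CPM. Genes of glycolysis and growth likewise had none past the fold, with medians of -0.049, -0.22, -0.048 and -0.14.

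Beyond the lists, genes with the largest ratios were named where the counting interval did not include 0 and no cell held more than 20% of the UMIs in either library. In KO against WT after DPBS, the highest were Rrad, Ppp1r16b, Vegfa, Tcp11l2, Pde2a, Nudt4, Tgif1, Frat2, Spry2 and Rora. Rrad, which encodes a small GTP-binding protein, was at 32.5, 114, 127 and 71.8 CPM, with a log2 ratio of 1.81 (0.98 to 2.64) that went to 0.38 for Rrad without UMIs of other cell types. Vegfa, the vascular growth factor, was at 50, 135, 65.8 and 126 CPM, and its ratio of 1.43 (0.71 to 2.14) went to -0.25 without UMIs of other cell types. The lowest were Lamtor5, Atp6v1d, Zcchc9, Ddx41, Rilpl2, Baz1b, Gnl3, Hnrnph1, Ifi209 and Commd3. Each of these rests on few counts, with 5 to 12 UMIs in DPBS KO and 49 to 114 UMIs in DPBS WT. Lamtor5, part of the lysosomal Ragulator complex, was at 101, 21.1, 92.1 and 65.9 CPM, with a ratio of -2.26 (-3.92 to -0.98). Atp6v1d, a subunit of the lysosomal proton pump, was at 86.2, 21.1, 65.8 and 68.8 CPM, with a ratio of -2.03 (-3.70 to -0.74).

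In KO against WT after papain, the highest were Klhdc2, Gadd45b, Chd2, Ctla2a, Traf1, Taf15, Birc2, Bcas2, Prkca and Styk1. Gadd45b, a stress-induced gene, was at 132, 92.7, 70.2 and 201 CPM, with a log2 ratio of 1.52. Without UMIs of other cell types the ratio was 0.64 for Gadd45b and 0.22 for Traf1. Traf1 and Birc2 encode adaptors of TNF receptor signalling, and Traf1 was at 174, 253, 101 and 225 CPM. Styk1, a kinase-like protein of NK cells, had a ratio of 1.03 (0.13 to 2.02). The lowest were S1pr5, Dennd1b, Gm10076, Sec61a1, Hsph1, Gatad2b, Psmb6, Mef2d, Grina and Kif21b. Sec61a1, a subunit of the protein channel of the endoplasmic reticulum, was at 73.7, 101, 145 and 65.9 CPM, with a ratio of -1.14 (-1.98 to -0.31).

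In WT, the genes highest in papain against DPBS were Mphosph8, Gmfb, Hsph1, Ttc39b, N4bp1, Crybg1, Hist1h1e, Esyt2, Nr3c1 and Dennd1b. Nr3c1, the glucocorticoid receptor, was at 71.2, 97, 153 and 89.8 CPM, with a log2 ratio of 1.11 (0.46 to 1.74). Hsph1, a heat shock protein of the HSP110 family, was at 177, 164, 443 and 219 CPM, highest in Papain WT. The lowest were Arhgap25, Prrc2b, Laptm4a, Tmx1, Arhgef3, Parp1, Mia3, Spata13, Bdp1 and Kxd1, with 5 to 13 UMIs each in Papain WT and 45 to 132 in DPBS WT. Arhgap25, which encodes a regulator of Rac in leukocytes, was at 114, 67.4, 26.3 and 89.8 CPM, with a ratio of -2.11 (-3.60 to -0.93). In KO, the genes highest in papain were Arl4d, Hnrnph1, Krit1, Tatdn2, Ddx39b, Ccr2, Borcs7, Zcchc7, Zcchc6 and Runx1, and the lowest Tgif1, Tnfrsf18, Nudt4, Anxa11, Ncf4, Gltp, Tnfrsf1b, Rfc2, Cnot6l and Nfkbiz. Without UMIs of other cell types the ratio went from 1.57 to 0.36 for Arl4d and from 1.11 to -0.077 for Ccr2. That of Cnot6l went from -0.99 to -1.49. Tnfrsf18, the costimulatory receptor GITR, was at 101, 181, 70.2 and 74.8 CPM, with a ratio of -1.28 (-2.05 to -0.53) that went to -0.49 for Tnfrsf18 without UMIs of other cell types. Hnrnph1, an RNA-binding splicing factor, was at 142, 50.6, 153 and 126 CPM and thus low in DPBS KO alone, and Tgif1 and Nudt4 were high there alone, with Tgif1 at 62.5, 152, 83.3 and 47.9 CPM. Comparisons that share a library are not independent of each other.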

How the data were processed

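The labels describe 4 libraries of sorted lung immune cells, 1 per combination of genotype and treatment. The deposited matrices hold UMI counts per gene and cell barcode for 31053 genes, which the authors made with Cell Ranger and mm10 according to the submitters' processing notes, and the file headers name software version 3.1.0. The values are raw counts that had not been normalised. After DPBS 8552 barcodes came from WT and 5946 from KO, and after papain 8444 from WT and 5863 from KO, with 75675956, 56430211, 74536080 and 53854420 UMIs.

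A barcode was kept at over 200 genes and under 15% of UMIs from mitochondrial genes, leaving out 30, 42, 75 and 16 barcodes for few genes and 378, 200, 375 and 145 for mitochondrial UMIs. NK cells were then chosen by the UMIs of 5 positive and 4 negative genes. The members and the gene lists were chosen with earlier results of these data known. Groups came from the labels. With 1 library per group no test was run. Counts were summed over the NK cells of a library and divided by their total to give CPM. Intervals were exact Poisson for levels, Clopper-Pearson for shares and conditional binomial for ratios, at 95%, and cover counting error only. Shares of cells were also computed after thinning each cell to 2000 UMIs. Named genes were, per comparison, the 10 highest and 10 lowest log2 ratios among genes with at least 50 UMIs, an interval without 0 and no cell above 20% of the UMIs in either library, besides members of the gene lists and the 15 genes that most separated NK cells from each neighbouring class. Individual list members with values, and those past the fold, were chosen after their values were seen.

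Doublets were not removed, since the deposited cells came without a statement on doublets for these libraries; removal by Scrublet scores at 0.8% per 1000 barcodes was an alternative, and the threshold it set by itself failed in Papain KO, where it marked 0.0175% of barcodes. Other alternatives changed the scaling (TMM of edgeR 4.0.16, size factors of DESeq2 1.42.0), the UMI minimum, the mitochondrial limit, the thinning depth and the selection. Those with the deepest cell of DPBS WT left out, with lymphocytes as denominator of the share and with stricter negative markers for the counts past the fold were added after seeing the data. Positions are from GENCODE M21, in which 31011 of the identifiers were found. Windows of 90 bases in the last 500 bases of a gene's transcripts were searched in the transcripts of other genes. The interval computation was tested on simulated counts and held the true ratio for 96.0% of 3169 genes for KO against WT in DPBS. These counts were Poisson draws without the gathering of UMIs in single cells seen in the data. The simulation thus checks the computation alone, not the width of the intervals for these cells. Software was scanpy 1.11.5, pandas 2.3.3, scipy 1.17.1, numpy 2.4.6 and matplotlib 3.10.9 in Python 3.11.15, and R 4.3.3. A few list members that enter the counts and medians are not reported here by name or drawn.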

Additional observations from a re-analysis of the deposited data

Results flagged for a closer look

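Several values went one way between KO and WT after DPBS and the other way after papain. Each difference is the KO over WT log2 ratio after papain minus the one after DPBS, and it was not tested, as each group is 1 library. The share of NK cells differed by 2.19, from -1.12 in DPBS to 1.07 in papain. Of 380 listed or named genes, 167 had at least 50 UMIs in both comparisons and a UMI in every library, and 9 of these met the same condition with counting intervals on opposite sides of 0. The same count over all genes was not made, and some of the 380 were named for large ratios in these comparisons. Whether 9 is more than other genes would give is therefore not known. For the receptor genes Klrk1 and Klrc2 the differences were 1.50 and 1.13. For the chemokine genes Ccl3 and Ccl4 they were 1.56 and 0.98, and for the trafficking receptor Ccr2 the difference was 1.46. For the heat shock gene Hspa1a the difference was 0.46. It was negative for genes of mature NK cells, with -1.69 for Klrg1, -1.02 for Irf8 and -0.67 for Lgals1. In 3 of the 9 genes, Klrk1, Klrc2 and Irf8, the KO over WT ratio kept its sign after both DPBS and papain under the alternatives tried. In cells without UMIs of other cell types the ratios after DPBS and papain were -1.02 and 0.69 for Klrg1, 0.16 and -0.058 for Ccr2, -0.30 and -0.14 for Lgals1, -2.49 and -0.40 for Ccl3, -1.34 and -0.34 for Ccl4, and -1.97 and -0.68 for Hspa1a. The difference thus turned sign for Klrg1, Ccr2 and Lgals1, and the ratios no longer had opposite signs for Lgals1, Ccl3, Ccl4 and Hspa1a.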

How the results depend on the processing

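No paired analysis was possible because each group holds 1 library, and for the same reason no replicate could be left out. The log2 ratios of NK shares stayed within their intervals in 25 of 28 recomputed values. With the stricter negative markers they went to -1.96 for KO against WT in DPBS, -1.09 for papain against DPBS in WT and 1.74 in KO. Of 174 gene ratios, 146 kept their sign under all alternatives tried or had an interval that included 0, and 86 left their interval or changed sign under at least 1. Of the ratios with an interval without 0, those that changed by over 1.5 times were 90 of 160 with the stricter markers, 45 of 165 with no granule gene or Eomes required, 30 with the mean of each cell's CPM, 22 with both Ncr1 and Klrb1c required, 12 without the top cell of the gene, and 0 to 7 under the others. The cause of the changes was not tested, apart from the cells that the stricter selection removed.

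Counts past the fold are given as higher and lower for KO against WT in DPBS, KO against WT in papain, papain against DPBS in WT and the same in KO. They were 32 and 183, 20 and 23, 29 and 102, and 24 and 21. With at least 20 UMIs they were 149 and 679, 122 and 187, 175 and 432, and 186 and 111. With at least 100 UMIs they were 10 and 44, 4 and 8, 6 and 21, and 6 and 5. With no filter (1 UMI) they were 2907 and 1287, 1560 and 2294, 2941 and 872, and 1646 and 2098. With the mean of each cell's CPM, those higher in the first and the third were 54 and 79. With the stricter markers those lower in the first were 53, higher in the second 13, higher and lower in the third 10 and 18, and lower in the fourth 7.

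The median of the mature list went to 0.15 for papain against DPBS in KO with the mean of each cell's CPM, and to 0.21 in WT with no granule gene or Eomes required. With the stricter markers it was -0.48, -0.011, -0.016 and 0.57, over 9, 8, 11 and 5 genes. With the mean of each cell's CPM, the median of the immature list went to -0.18 for KO against WT in DPBS. For papain against DPBS in WT it went to -0.56 with the same mean. With the stricter markers it went to 1.14 for KO against WT in papain, over 5 genes. Unthinned, cells with Cd27 alone were 27.6%, 31.7% and 23.7% in DPBS WT, DPBS KO and Papain WT, and those with Itgam alone 27.6% in DPBS WT and 24.6% in Papain KO. At 1000 UMIs, Cd27 alone was 12.3% in Papain KO and Itgam alone 15.8% in Papain WT.

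Ratios that changed sign with the stricter markers were, for KO against WT in DPBS, Baz1b 0.62, Ccl5 -0.14, Ccr2 0.16, Cd44 0.47, Cma1 -1.25, Klrg1 -1.02, Lgals1 -0.30, Sh2d1b1 0.52 and Vegfa -0.25. For KO against WT in papain they were Ccl3 -0.40, Ccl4 -0.34, Ccr2 -0.058, Grina 0.025, Hspa1a -0.68 and Klrg1 0.69. For papain against DPBS in WT they were Ccl4 -0.53, Cma1 -0.016, Gzma -0.090, Gzmb -0.35, Klrg1 -0.26 and Ly6c2 -0.13, and in KO Ccr2 -0.077 and Ifng -0.24. With both Ncr1 and Klrb1c required, Ccl4 and Ccl5 went to -0.053 and -0.056 for KO against WT in papain, and Ccl5 to -0.086 with doublets removed. With no granule gene or Eomes required, Ccl3 went to -0.060 for papain against DPBS in WT and Ly6c2 to 0.030 for KO against WT in papain. With the mean of each cell's CPM, Lgals1 went to 0.020 and Hspa1a to -0.11 for KO against WT in papain and Ifng to -0.097 for papain against DPBS in KO. Without the top cell of the gene in each library, Ccl4 went to -0.19 for papain against DPBS in WT and Thy1 to 0.042 in KO.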
